A study of Mus musculus with 8 samples.

Results

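The genes described here are the gamma crystallins and structural genes of the lens fibre cell, as measured in RNA from dissected mouse retina. The set was given by name and holds 10 genes, Cryga, Crygb, Crygc, Crygd, Cryge, Crygf, Bfsp1, Bfsp2, Mip and Lim2, out of 55213 genes listed in the count tables. All 10 were found, and all 10 reached the 10 counts over the 8 libraries that a gene needed to be among the 26900 tested. The mice were germ-free (GF) C57B1/6 adult males, kept without any gut microbiota, and both groups shared this. From 7 weeks of age they ate a normal diet (GF-ND, mice 9, 10, 11 and 12) or a high-fat diet with 23% saturated fat (GF-HFD, mice 13, 15, 16 and 19) for 8 weeks, and whole retinas were taken at 15 weeks, 1 library for each mouse. The comparison asks how the diet changed retinal RNA in mice that lack a microbiota, and no mouse with a microbiota was included.

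The lens lies in front of the retina and is built of fibre cells, which fill with crystallins, lose their organelles and are kept for life. Gamma crystallins are small, tightly folded structural proteins that are packed at high concentration in the fibre cells and raise the refractive index, and mutations in their genes are a known cause of cataract. Bfsp1 (filensin) and Bfsp2 (phakinin) assemble the beaded filament, an intermediate filament particular to the lens, and Mip (an aquaporin) and Lim2 are abundant proteins of the fibre cell membrane. The retina is a separate, neural tissue, from which the lens is removed in dissection. A low level of some crystallins, mainly of the alpha and beta families, is known in the retina itself.

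The gamma crystallin genes lie close together and resemble each other, which bears on how well short reads can be told apart. In GRCm38 with the GENCODE vM21 annotation, Cryge (65048554 to 65051149), Crygd (65061872 to 65063452), Crygc (65071525 to 65073689), Crygb (65080219 to 65082288) and Cryga (65100389 to 65103373) follow each other on the minus strand of chromosome 1. Crygf lies on the plus strand of the same chromosome, from 65926520 to 65928307. The coding sequences of Cryge and Crygf were 98.1% identical, those of Crygd and Cryge 91.6%, those of Crygb and Crygc 83.7%, and the least alike pair, Crygc and Crygf, 79.2%. The coding stretch from base 409 to base 468 is shown for the most similar genes because it holds bases that tell them apart. It is not typical for Cryge and Crygf, since it holds 4 of the 10 bases at which their whole coding sequences differ. Capitals mark the 9 positions at which the 3 sequences are not all the same, 4 of which differ between Cryge and Crygf and 6 between Crygd and Cryge. They lie in coding exons at chr1:65061967-65062026 (minus strand) for Crygd, chr1:65048681-65048740 (minus strand) for Cryge and chr1:65928127-65928186 (plus strand) for Crygf.
Crygd: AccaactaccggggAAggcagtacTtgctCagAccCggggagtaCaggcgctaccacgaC
Cryge: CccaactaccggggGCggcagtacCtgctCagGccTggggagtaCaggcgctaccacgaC
Crygf: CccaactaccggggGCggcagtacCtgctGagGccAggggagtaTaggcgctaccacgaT

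Of all windows of 100 coding bases, the length of 1 read, 28.4% in Crygb and 28.4% in Crygc were identical to a window of the other gene. The share was 27.5% in Cryge, 14.8% in Crygf and 12.7% in Crygd, and 0 in Bfsp1, Mip and Lim2. In Cryga it was 58.9%, all of it shared with Gm28845, a gene that overlaps it on the same strand and had 0 counts in all 8 libraries. Those 0 counts do not show that reads fitting both genes went to Cryga, since such reads may have been left out. How reads that fit more than 1 gene were counted is not given in the sources used here. The level of Cryga and the split between near-identical gamma crystallins, above all Cryge and Crygf, are therefore uncertain. The other genes lie apart from one another, Bfsp1 on chromosome 2 (143826528 to 143863173, minus strand), Lim2 on chromosome 7 (43427670 to 43435996, plus strand), Bfsp2 on chromosome 9 (103424924 to 103480420, minus strand) and Mip on chromosome 10 (128225838 to 128231812, plus strand). Bfsp2 shares exonic bases with 5830418P13Rik on the opposite strand, which had 4 to 84 counts, and Mip with Gm26847 on the opposite strand. Whether the counting used strand is likewise not given.

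The 6 gamma crystallins also share sequence just before their start sites, a feature that the choice of genes did not use. The 80 bases before each start are shown because these genes were highest in the same libraries. They are RefSeq promoters in GRCm38.p6, at chr1:65103364-65103443 (Cryga), chr1:65082291-65082370 (Crygb), chr1:65073533-65073612 (Crygc), chr1:65063441-65063520 (Crygd) and chr1:65051164-65051243 (Cryge) on the minus strand and chr1:65926442-65926521 (Crygf) on the plus strand. Capitals mark TATATA and TTTGTG, 2 runs of 6 bases that all 6 sequences hold.
Cryga: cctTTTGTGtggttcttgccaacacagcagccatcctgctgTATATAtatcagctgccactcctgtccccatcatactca
Crygb: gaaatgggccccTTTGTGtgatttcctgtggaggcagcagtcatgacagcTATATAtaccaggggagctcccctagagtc
Crygc: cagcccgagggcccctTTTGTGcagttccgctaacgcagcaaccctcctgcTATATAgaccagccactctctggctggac
Crygd: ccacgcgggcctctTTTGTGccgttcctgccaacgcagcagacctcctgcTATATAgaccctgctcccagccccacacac
Cryge: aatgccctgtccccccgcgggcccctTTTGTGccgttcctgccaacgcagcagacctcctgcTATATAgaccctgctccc
Crygf: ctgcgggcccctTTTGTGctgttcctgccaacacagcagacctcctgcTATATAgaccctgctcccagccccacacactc

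The last base of TATATA lay 13 to 34 bases before the RefSeq start. For each of these genes that start differs from the gene start placed by GENCODE above, and the distance depends on which is used. For Crygc, where the starts lie farthest apart, the whole window lies within the gene as placed by GENCODE. Both runs, read in the direction of the gene, were found in this window in 24 of 32851 mouse promoters (0.0731%), but they were picked after the sequences were seen, so this share is a description. Of 3 further motifs searched on both strands in the 250 bases before the start, TATAAA was in 0 of the 10 genes and in 12.4% of all promoters. TGCTGA, the half-site of the large MAF factors, was in Bfsp1, Cryga, Crygc, Lim2 and Mip (5 of 10) and in 16.1% of all promoters. ACAAAG, a SOX core, was in Cryga, Crygb and Lim2 (3 of 10) and in 16.5% of all promoters. TATATA and TATAAA can overlap, and a match of letters is not evidence of binding.

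The libraries held 39258006 to 44357518 counts, and TMM factors, which correct for differences in composition, lay between 0.949 and 1.04. Summed levels of 8 rod photoreceptor markers were 49442 to 75650 CPM (counts divided by library total and TMM factor, as usual for this unit) in 7 libraries and 34258 in GF-ND mouse 11. The 10 lens genes took 1.09% of all counts in GF-ND mouse 11 (480190 of 44025087) and 0.0740% in GF-HFD mouse 19 (95% Wilson interval 0.0732 to 0.0748). In the other 6 libraries the share was 0.00179% to 0.00857%. The share in mouse 11 was thus 14.7-fold that in mouse 19 and 611-fold that in GF-ND mouse 12, the lowest. GF-ND mouse 11 stands apart from the other libraries and is not representative of its group, so the diet differences of the 10 genes and the medians of the gene lists are given with it and without it. In whole tissue, fewer cells of a type and less RNA per cell cannot be told apart, and intervals on shares cover counting error only.

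Crygb, Crygc and Crygd carried most of the gamma crystallin reads. Crygb was at 6.36, 4.63, 3219 and 4.45 CPM in GF-ND mice 9, 10, 11 and 12, and at 5.54, 3.09, 17.3 and 89.8 CPM in GF-HFD mice 13, 15, 16 and 19. In the same order of mice, Crygc was at 4.24, 4.53, 1447 and 1.96 CPM in GF-ND and at 2.96, 1.80, 12.1 and 46.7 CPM in GF-HFD. Crygd was at 2.94, 1.77, 1766 and 3.30 CPM in GF-ND and at 2.91, 1.71, 9.73 and 43.4 CPM in GF-HFD. For all 3 genes mouse 11 was the highest library, mouse 19 the second and mouse 16 the third, and the other 5 lay within a few CPM of each other with both diets among them. Group means were smaller than their SD, with Crygb at 809 ± 1607 CPM in GF-ND and 28.9 ± 41.1 CPM in GF-HFD (SD, n = 4 each).

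**Figure D1:**
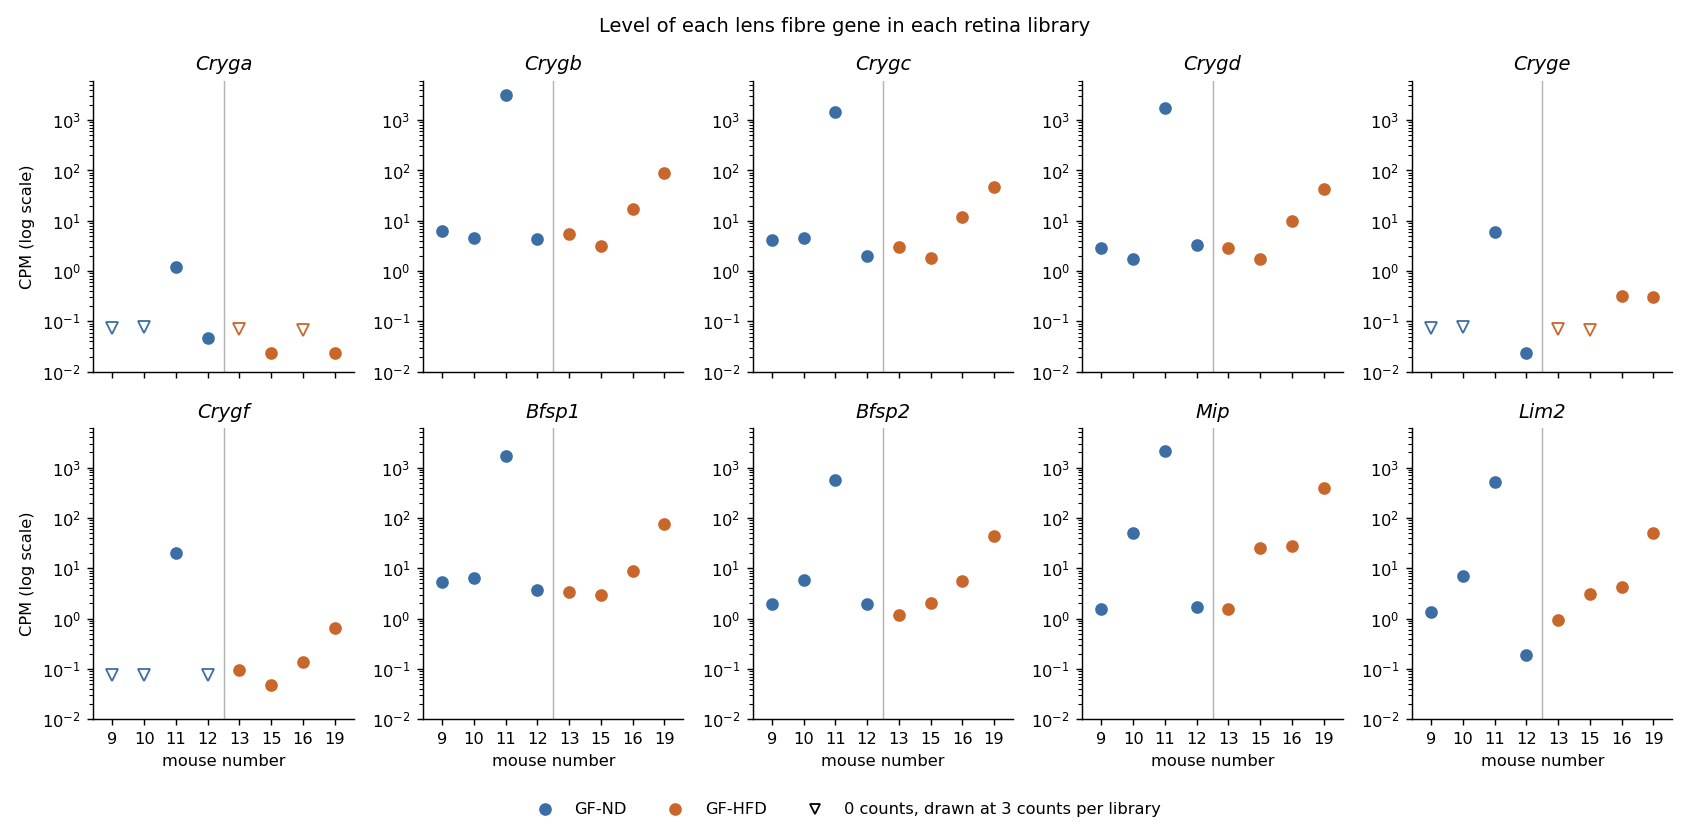
Level of each of the 10 lens genes in each library, in CPM on a log axis, by mouse and diet. Each point is 1 mouse, and genes with 0 counts are drawn at the level of 3 counts without the TMM factor. Such a point can lie above that of a library with 1 or 2 counts. GF-ND mouse 11 is the highest point for every gene, with Crygb at 3219 CPM, and GF-HFD mouse 19 lies below it.

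The other gamma crystallins had few counts outside mouse 11. Crygf, whose coding sequence is almost that of Cryge, had 0, 0, 850 and 0 counts in GF-ND mice 9, 10, 11 and 12 and 4, 2, 6 and 28 counts in GF-HFD mice 13, 15, 16 and 19. Cryge had 0, 0, 250 and 1 counts in GF-ND and 0, 0, 14 and 13 counts in GF-HFD. Cryga had 0, 0, 50 and 2 counts in GF-ND and 0, 1, 0 and 1 counts in GF-HFD. A count of 0 allows a level of up to 0.0676 to 0.0764 CPM, depending on the library. This floor is 3 counts divided by the library total, without the TMM factor. Outside mouse 11, Crygf in mice 13 (0.0955 CPM), 16 (0.137 CPM) and 19 (0.662 CPM) and Cryge in mice 16 (0.320 CPM) and 19 (0.307 CPM) lay above that floor. Differences between the diets in these genes outside mouse 11 rest on a few counts.

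Bfsp1 and Bfsp2, the partner proteins of the beaded filament, were likewise highest in mouse 11 and second highest in mouse 19. Bfsp1 was at 5.28, 6.45, 1732 and 3.68 CPM in GF-ND mice 9, 10, 11 and 12 and at 3.37, 2.97, 8.79 and 74.2 CPM in GF-HFD mice 13, 15, 16 and 19. Bfsp2 was at 1.95, 5.76, 575 and 1.91 CPM in GF-ND and at 1.19, 2.04, 5.54 and 44.2 CPM in GF-HFD. For both genes, 6 libraries of the 2 diets overlapped below 10 CPM. The ratio of Bfsp1 to Bfsp2 counts lay between 1.12 and 3.01 over the 8 libraries.

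Mip and Lim2, the membrane proteins, were spread more widely than the rest. Mip was at 1.52, 50.3, 2166 and 1.70 CPM in GF-ND mice 9, 10, 11 and 12 and at 1.58, 25.0, 27.9 and 396 CPM in GF-HFD mice 13, 15, 16 and 19. Lim2 was at 1.35, 7.17, 509 and 0.191 CPM in GF-ND and at 0.955, 3.13, 4.21 and 50.9 CPM in GF-HFD. Mice 9, 12 and 13 were low in both genes while mice 10, 15 and 16 lay between them and mouse 19. Over the 6 libraries other than mice 11 and 19, the highest level was 33.1-fold the lowest for Mip and 37.4-fold for Lim2, against 2.96-fold for Bfsp1 and 5.59-fold for Crygb.

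The proportions of the 10 genes therefore were not the same in every library. Gamma crystallins made up 57.3% (95% Wilson interval 54.2 to 60.3), 13.6% (12.4 to 14.8), 56.5% (56.3 to 56.6) and 56.6% (53.0 to 60.2) of the counts of the 10 genes in GF-ND mice 9, 10, 11 and 12. In GF-HFD mice 13, 15, 16 and 19 they made up 61.9% (58.4 to 65.2), 16.7% (15.0 to 18.6), 46.0% (44.4 to 47.6) and 24.2% (23.8 to 24.7). Mip alone made up 62.4% in mouse 10, 62.8% in mouse 15 and 53.1% in mouse 19, against 6.42% to 9.83% in mice 9, 12 and 13, 18.9% in mouse 11 and 32.5% in mouse 16. Each diet thus held libraries with a low and with a high share of gamma crystallins, and the intervals of the 2 kinds did not overlap. These are shares of counts, and per kb of exon the gamma crystallins made up 31.1%, 36.5% and 48.0% in mice 10, 15 and 19 and 70.7% to 82.5% in the other 5. The gamma crystallin share was also above 50% both in the library with the most reads from these genes (mouse 11) and in those with the fewest (mice 9, 12 and 13).

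**Figure D2:**
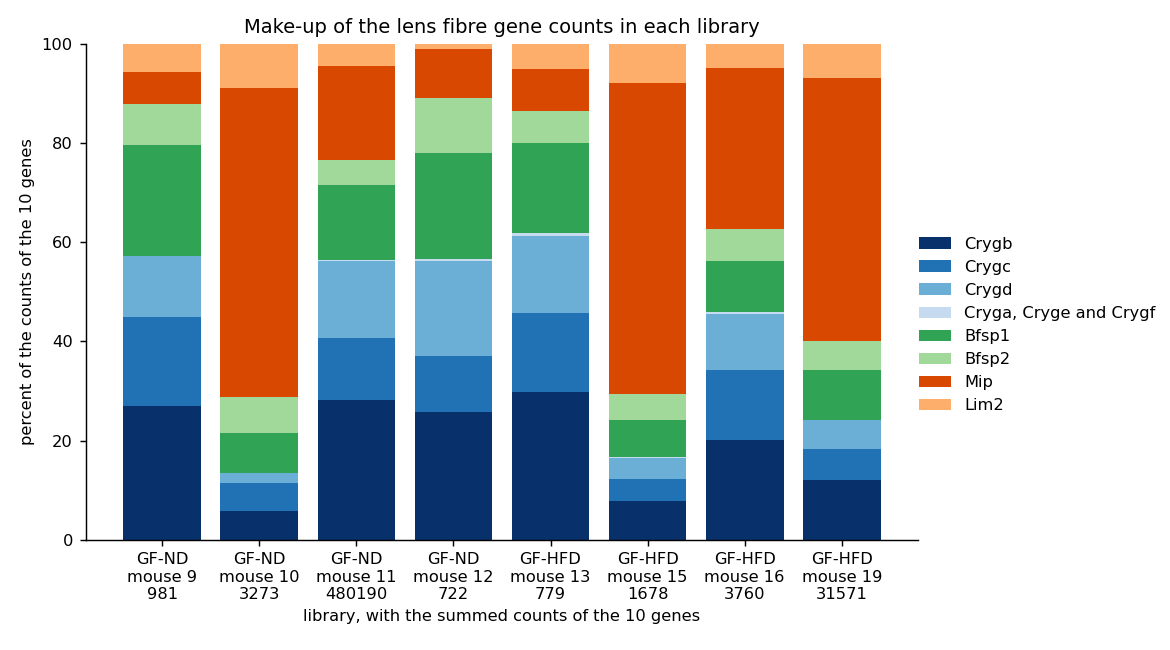
Make-up of the lens gene counts within each library, as the percent of the summed counts of the 10 genes that came from gamma crystallins, beaded filament genes (Bfsp1, Bfsp2) and fibre membrane genes (Mip, Lim2). Gamma crystallins made up 13.6% in GF-ND mouse 10, 16.7% in GF-HFD mouse 15 and 24.2% in GF-HFD mouse 19, and 46.0% to 61.9% in the other 5 libraries.

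Ratios to Crygb showed which genes kept step with the gamma crystallins. Crygd counts were 0.383 to 0.742 of those of Crygb over the 8 libraries, and Crygc counts 0.441 to 0.979, a range of 1.94-fold and 2.22-fold. Bfsp1 counts were 0.509 to 1.39 of those of Crygb, a range of 2.74-fold. The ratio of Mip to Crygb ran from 0.239 in mouse 9 to 10.9 in mouse 10, a range of 45.5-fold, and that of Lim2 to Crygb from 0.0430 to 1.55, a range of 36.0-fold. Among the genes of the same cell type outside the set, Lgsn, a lens fibre protein, stayed at 0.266 to 0.613 of Crygb, while Gja3, a gap junction protein of lens fibres, ran from 0.0303 to 1.18. Lgsn and Gja3 were singled out here after their values were seen.

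Another gene that separated the libraries was Optc, which encodes opticin, a secreted protein of the ciliary body. Optc was at 0.627, 21.7, 18.2 and 0.861 CPM in GF-ND mice 9, 10, 11 and 12 and at 1.003, 20.8, 54.3 and 76.4 CPM in GF-HFD mice 13, 15, 16 and 19. The 3 libraries with the lowest Mip (9, 12 and 13) were also the 3 with the lowest Optc. The whole list of 8 ciliary body and iris genes, which its most abundant gene Mab21l1 weighs on, summed to 156 to 211 CPM in GF-ND and 154 to 282 CPM in GF-HFD. Of this list, Wfdc1, Zic1 and Zic2 were also lowest in mice 9, 12 and 13, while Slc4a4, Cpxm2, Mab21l1 and Opn5 were not. Slc4a4 was at 15.5 CPM in mouse 9 and 13.5 CPM in mouse 10. These genes are named here after their values were seen. Fibroblast genes summed to 13.6 to 22.2 CPM in mice 9, 12 and 13 and to 67.7 to 297 CPM in the other 5. Fbln1 had the highest level of the fibroblast genes in mice 10, 15, 16 and 19, and Ogn in mouse 11. Fbln1, Ogn and Col1a2 were lowest in mice 9, 12 and 13, while Col1a1, Col3a1, Dcn, Lum and Pdgfra were not. The fibroblast genes are likewise named after their values were seen. The part of these tissues in the make-up of the lens genes was not tested.

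**Figure D3:**
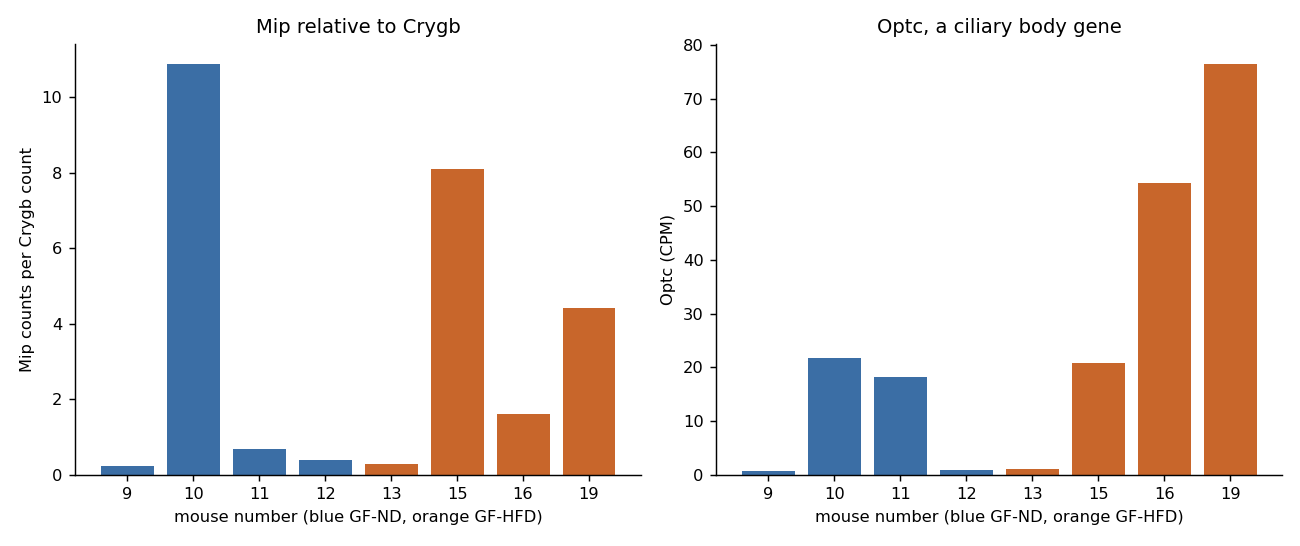
Mip and Optc in each library, by mouse and diet. Mice 9, 12 and 13 had 0.239 to 0.382 Mip counts for each Crygb count, against 0.673 to 10.9 in the other libraries. Their Optc was at 0.627 to 1.003 CPM, against 18.2 to 76.4 CPM in the others. Both diets were found among the low libraries and among the rest.

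The make-up also showed when each gene was set against its own level in mouse 11. Crygb in 6 of the other libraries was at 0.096% to 0.536% of its level in mouse 11, and at 2.79% in mouse 19. Mip was at 0.070% to 0.078% in mice 9, 12 and 13, at 1.16% to 2.32% in mice 10, 15 and 16, and at 18.3% in mouse 19. The library of mouse 19 thus held less of the gamma crystallins, for its level of Mip, than that of mouse 11. Mouse 11 exceeded mouse 19 by 5.47-fold for Mip, 10.01-fold for Lim2, 13.005-fold for Bfsp2, 23.3-fold for Bfsp1, 30.98-fold for Crygc, 35.8-fold for Crygb and 40.7-fold for Crygd.

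**Figure D4:**
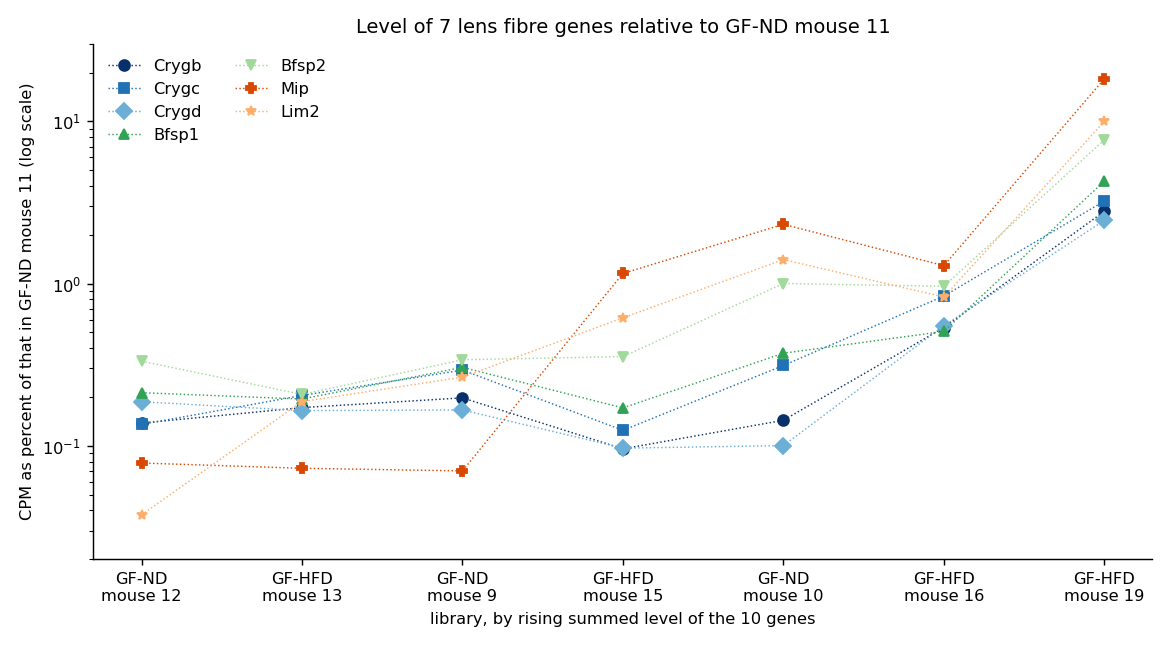
Level of each of 7 lens genes in the other 7 libraries, as a percent of its CPM in GF-ND mouse 11, on a log axis. Crygb, Crygc and Crygd lie at 2.46% to 3.23% and Mip at 18.3% in GF-HFD mouse 19, and the Mip points of mice 9, 12 and 13 lie below 0.1%.

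Levels can be set side by side between genes only per length. Per kb of annotated exon, mouse 11 had Crygb at 5077 CPM per kb, Crygc at 1841, Crygd at 1718, Mip at 1010, Bfsp1 at 725, Bfsp2 at 339, Lim2 at 233, Crygf at 32.3, Cryge at 8.24 and Cryga at 1.63. The value of Cryga may be too low, since it is not known how reads shared with Gm28845 were counted. In mouse 19 Mip led with 185 CPM per kb, followed by Crygb at 142, Crygc at 59.4, Crygd at 42.2 and Bfsp1 at 31.03. Mip was first in mice 10, 15 and 19 and Crygb in mice 9, 11, 12, 13 and 16. Within each diet the SD over mice exceeded the mean for every gene above. Since the genes were measured in the same libraries, neighbours in the order of mouse 11 were also compared within each library. Crygb exceeded Crygc in 8 of 8 libraries, Crygc exceeded Crygd in 7 of 8, and Bfsp1 exceeded Bfsp2 and Bfsp2 exceeded Lim2 in 7 of 8 each. Crygd exceeded Mip in 4 of 8 and Mip exceeded Bfsp1 in 5 of 8, so that these neighbours had no steady order.

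Set against the normal diet, the high-fat diet gave no difference in any of the 10 genes that passed the test. On the log2 scale, the fitted differences (GF-HFD relative to GF-ND) were -4.81 (SE 2.20) for Crygb, -4.52 (SE 2.07) for Crygc, -4.94 (SE 2.20) for Crygd, -4.41 (SE 1.78) for Cryga, -3.22 (SE 1.82) for Cryge and -4.41 (SE 2.04) for Crygf. They were -4.29 (SE 2.05) for Bfsp1, -3.46 (SE 1.88) for Bfsp2, -2.30 (SE 2.04) for Mip and -3.13 (SE 1.96) for Lim2. In edgeR's quasi-likelihood test with Benjamini-Hochberg adjustment over all 26900 genes, their adjusted p-values were 0.649 to 0.769, so that 0 of 10 were called, as were 0% of all genes tested. By limma-voom 0 of 10 were called as well, and at an unadjusted p under 0.05 the edgeR fit had 2 of 10 (Cryga and Crygd) and 7.38% of all genes. Exact two-sided permutation tests of the mean log2 CPM over the 70 arrangements of 4 against 4 mice gave p = 0.543 to 1, where the smallest possible is 0.0286. In 0 of 10 genes did the diets fail to overlap, against 4.83% of all genes tested. For Cryga, 2 counts in GF-HFD against 52 in GF-ND gave a ratio of 0.0364 (95% exact interval 0.00430 to 0.138), which covers counting error only. Of those 52 counts 50 were from mouse 11, and without it 2 counts stood against 2, a ratio of 0.692 (0.0501 to 9.54).

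The direction of these fitted values came from 1 mouse. The fit put 10 of 10 genes lower in GF-HFD, with a median log2 fold change of -4.35 beside -0.03 over all genes tested, but the median CPM was higher in GF-HFD for 7 of them, and limma-voom put Crygf (1.02) and Mip (0.16) higher. Without GF-ND mouse 11, 9 of the 10 genes could be tested, since Cryga fell under 10 counts, and all 9 were fitted higher in GF-HFD. Their log2 fold changes were then 2.49 (SE 0.94) for Crygb, 2.16 (SE 0.91) for Crygc, 2.43 (SE 0.91) for Crygd, 2.13 (SE 0.98) for Bfsp1, 2.06 (SE 1.05) for Bfsp2, 2.68 (SE 1.54) for Mip and 2.37 (SE 1.27) for Lim2. The median was 2.43, with 0.01 over all genes, and with Crygf set to its bound the median was 2.43 as well. Again 0 genes were called, beside 1.6% of all genes tested without this mouse, with a smallest adjusted p of 0.0879 (Crygf, edgeR) and 4 of 9 at an unadjusted p under 0.05, where 23% of all genes were.

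Crygf was the 1 gene of the set whose diets did not overlap without mouse 11, where 20.2% of all genes did not overlap. Its 40 counts in GF-HFD, 28 of them from mouse 19, stood against 0 in GF-ND. Pooled over mice, that is at least 9.22-fold higher with 3 counts over the group as the floor. This bound covers counting error only and not the spread between mice. The Crygf counts were all even, and if each read pair added 2 counts the bound would be 4.61-fold. For Cryge, 27 counts in GF-HFD against 1 gave a ratio of 18.7 (95% exact interval 3.08 to 765), which covers counting error only. Those 27 counts were 14 in mouse 16 and 13 in mouse 19, with 0 in mice 13 and 15. The higher fitted level in GF-HFD depended in turn on mouse 19. Without mice 11 and 19 the median of the 9 genes was 0.65, with Mip at 0.042, Bfsp1 at -0.026, Lim2 at -0.055 and Bfsp2 at -0.13. Of these 9, 0 were called by edgeR (smallest adjusted p 0.186), against 0.214% of all genes, and 1 (Crygf) did not overlap, against 24.8% of all genes. Leaving mouse 19 out alone gave a median of -5.68.

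**Figure D5:**
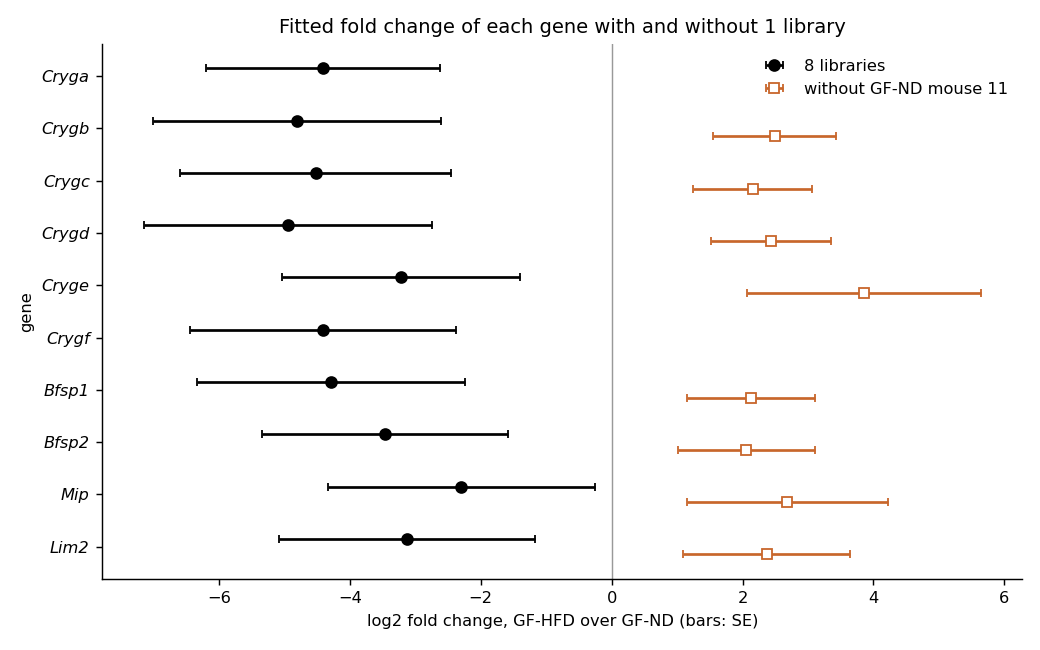
Fitted log2 difference of GF-HFD relative to GF-ND for each lens gene, with bars of 1 SE, in all 8 libraries and without GF-ND mouse 11. With all libraries the values lie between -4.94 and -2.30, and without mouse 11 between 2.06 and 3.86. Cryga has no second point because it had under 10 counts, and Crygf none because GF-ND was then at 0 counts.

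The genes whose pattern over the 8 libraries lay nearest to the mean of the 10 were for the most part lens genes. Likeness was the root mean square difference of centred log2 CPM over 18406 genes with at least 100 counts, where 0 means the same pattern. The 10 nearest were Gm11837 (0.575), Cryba4 (0.623), Crybb1 (0.699), Crybb2 (0.723), Cd24a (0.737), Tmem40 (0.743), Igfbp7 (0.749), Lgsn (0.749), Dnase2b (0.753) and Crygs (0.759). Gm11837 is an antisense gene whose reads cannot be told from those of its partner without strand. Cryba4, Crybb1 and Crybb2 are beta crystallins, Crygs is a gamma-type crystallin, and Dnase2b is the nuclease that degrades DNA in maturing fibre cells. Of the 10 genes themselves, Bfsp2 (0.403) and Bfsp1 (0.420) lay nearest to their common mean, and Lim2 (1.11), Mip (1.64) and Cryga (1.66) farthest.

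Most other lens genes shared the pattern, and 0 of them were called. The 8 alpha and beta crystallins were all fitted lower in GF-HFD with mouse 11 (median log2 fold change -2.52, with Cryaa at -1.97 and Crybb2 at -2.60) and all 8 higher without it (2.14). Both other gamma-type crystallins did the same, Crygs from -2.52 (SE 1.84) and Crygn from -1.12 (SE 1.48) to a median of 2.17. Of 11 other lens fibre genes 10 were fitted lower, with a median of -2.22, Lgsn at -5.04 (SE 2.21) and Tdrd7 at 0.00 (SE 0.13). Without mouse 11 the median of the 10 that could be tested was 2.10, and 9 were fitted higher. The exception was Caprin2, named here after its values were seen. It was fitted lower with mouse 11 (-0.56, SE 0.13) and without it (-0.45, SE 0.11). The lens transcription factors had a median of -0.62 (8 of 10 lower), with Pax6 at -0.11 and Prox1 at -0.16, both of which the retina also expresses, and of 0.54 without mouse 11.

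Markers of other tissues were also unequal between the libraries. The 6 lens epithelium genes had a median log2 fold change of -0.66 (4 of 6 lower) with mouse 11 and of 2.03 (5 of 6 higher) without it. Slc38a3 was at -0.11 and Gja1 at 1.03 with it, and the sum of the list, which genes also expressed in retina dominate, was 583 to 843 CPM in GF-ND and 626 to 746 CPM in GF-HFD. Foxe3, a defining gene of that epithelium, was listed at 0 in mice 9, 13 and 15 and had 896 counts in mouse 11. The 8 pigment epithelium genes (median -0.36 with 5 of 8 lower, and 1.72 with 8 of 8 higher without mouse 11) summed to 58.2 to 1436 CPM in GF-ND, highest in mouse 11, and to 36.6 to 475 CPM in GF-HFD. The 5 cornea genes (median -0.05 with 3 of 5 lower, and 2.13 with 4 of 5 higher without mouse 11) summed to 0.718 to 149 CPM in GF-ND, highest in mouse 11, and to 0.215 to 43.1 CPM in GF-HFD, highest in mouse 19. Nearly all of the sum in those libraries was Aldh3a1, at 148 CPM in mouse 11 and 43.1 CPM in mouse 19. The keratin gene Krt5 had 31 counts in mouse 11, 36 in mouse 16 and 0 in mouse 19. Ciliary body and iris genes had a median of 0.70 (5 of 8 higher), with Optc at 1.88 (SE 1.22), fibroblast genes of 1.70 (6 of 8 higher), microglia genes of 0.28 (8 of 8 higher), and rod genes of 0.32 (8 of 8 higher). Without mouse 11 these medians were 1.15 (6 of 8 higher), 2.51 (8 of 8), 0.45 (8 of 8) and 0.20 (7 of 8). Red blood cell genes had a median of 1.49 (6 of 6 higher), and of 1.53 (5 of 6) without mouse 11. Muscle genes had a median of 2.31 (7 of 8 higher), and of 2.14 (7 of 8) without mouse 11. They summed to 40.6 CPM in GF-HFD mouse 13 and to 4.63 to 7.16 CPM in the other 7 libraries, and without mouse 13 their median was -0.17 (3 of 8 higher). With all 8 libraries 0 genes of these lists were called. The part of these tissues in the lens gene levels was not tested.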

How the data were processed

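The authors isolated whole retinas, made libraries with TruSeq RNA Sample Prep kits, sequenced 100-base read pairs, aligned them with STAR 2.4.2 to GRCm38 and counted reads per gene with featureCounts (Subread 1.4.6-p1) on a GENCODE annotation. The deposited values are raw counts per gene, 1 table for each of the 8 mice. Low counts were mostly even (among values of 1 to 12, even exceeded odd by a factor of 1.91 to 2.36), so intervals that treat each count as independent are too narrow and floors of 3 counts too low.

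The 10 genes and all lists were chosen with earlier results of these data known, so they are descriptions and not independent evidence. Genes that reached 10 counts summed over the 8 mice were scaled by TMM and fitted with edgeR 4.0.16 (quasi-likelihood, no covariate, Benjamini-Hochberg over all genes tested, called at an adjusted p under 0.05) in R 4.3.3. Each SE was derived from the test, as the absolute log2 fold change divided by the square root of edgeR's quasi-likelihood F statistic. CPM used TMM, and log2 CPM a prior count of 2. Mice 9 to 19 are 1 library each. limma-voom 3.58.1, DESeq2 1.42.0, other scalings and filters, and leaving out mice were alternatives, those without mice 11 and 19 together, and without mouse 13 for muscle genes, having been added after the data were seen. Genes named beyond the 10 were those called, up to 2 per list with the highest mean CPM, and the 10 nearest in pattern, with exceptions marked where they occur. Sequences came from GENCODE vM21 transcripts (GRCm38) and RefSeq promoters (GRCm38.p6), in which all 10 genes matched. The code was tested on simulated data.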

Additional observations from a re-analysis of the deposited data

Results flagged for a closer look

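A library was singled out by its gap to the nearest of the other 3 of its diet, divided by the range of the group. This quotient had to pass Dixon's 95% critical value, which chance gives in about 1 in 20 groups of normally distributed values. The levels were CPM without logs, for which that rate need not hold. Of 22 groups checked, 17 passed the critical value. GF-ND mouse 11 stood above its group for all 10 genes, at 3219 CPM for Crygb, 1447 CPM for Crygc, 1766 CPM for Crygd, 1.19 CPM for Cryga, 5.96 CPM for Cryge, 20.3 CPM for Crygf, 1732 CPM for Bfsp1, 575 CPM for Bfsp2, 2166 CPM for Mip and 509 CPM for Lim2. GF-HFD mouse 19 stood above its group for 6 genes, at 89.8 CPM for Crygb, 0.662 CPM for Crygf, 74.2 CPM for Bfsp1, 44.2 CPM for Bfsp2, 396 CPM for Mip and 50.9 CPM for Lim2. GF-ND mouse 10 stood below its group in the share of gamma crystallins among the counts of the 10 genes, at 13.6%. The genes come from the same libraries, so these are not separate events.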

How the results depend on the processing

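The sign of the diet difference turned with 1 library, and 0 of the 10 genes were called in any edgeR or limma-voom fit. Leaving out each mouse in turn, log2 fold changes ranged from -6.43 to 2.13 for Bfsp1, -5.64 to 2.06 for Bfsp2, -6.55 to 2.49 for Crygb, -6.01 to 2.16 for Crygc, -6.53 to 2.43 for Crygd, -3.83 to 3.86 for Cryge, -5.71 to 6.33 for Crygf, -5.54 to 2.37 for Lim2 and -4.93 to 2.68 for Mip. Cryga ranged from -4.86 to -4.06 in 7 of these fits and was not tested without mouse 11, where 2 counts stood against 2. The upper value of Crygf is a fitted one against 0 counts in GF-ND and no bound. The median ranged from -5.68 (without mouse 19) to 2.43 (without mouse 11), and the genes whose diets did not overlap from 0 to 1. Without mice 11 and 19, a choice made after seeing the data, the median was 0.65, with Crygb at 0.74, Crygc at 0.65, Crygd at 0.83, Cryge at 3.31, Crygf at 5.02 (fitted, against 0 counts), Mip at 0.042, Bfsp1 at -0.026, Lim2 at -0.055 and Bfsp2 at -0.13, and 1 gene (Crygf) did not overlap. In limma-voom Crygf was at 1.02 and Mip at 0.16, with a median of -0.99, and the cause was not tested. The median was -4.37 to -4.29 under RLE, library totals, upper-quartile factors, no filter, filterByExpr (7 genes) and DESeq2, which gave no p for the 10 genes and called 46 of 26900 genes where edgeR called 0, and 10 CPM in 4 libraries left Mip alone (-2.31).

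Per kb, gamma crystallins made up 79.6%, 31.1%, 79.0% and 78.3% in GF-ND mice 9, 10, 11 and 12 and 82.5%, 36.5%, 70.7% and 48.0% in GF-HFD mice 13, 15, 16 and 19. With all crystallins taken out of the denominator, the share of the 10 genes was 1.18% in mouse 11 and 0.0750% in mouse 19. No paired analysis was possible because the diets share no mouse number. With 4 mice per diet and 1 library far above the rest, a difference smaller than that spread was not detectable.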

Other observations

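Genes of the lens epithelium and its control separated the libraries too, and were singled out after their values were seen. Foxe3, a transcription factor of lens epithelium, had 0, 8, 896 and 2 counts in GF-ND mice 9, 10, 11 and 12 and 0, 0, 1 and 104 counts in GF-HFD mice 13, 15, 16 and 19. Pitx3, another lens transcription factor, had 0, 27, 967 and 0 counts in GF-ND and 4, 0, 6 and 134 counts in GF-HFD. Sox1, a factor that acts in fibre cell differentiation, had 0, 16, 871 and 0 counts in GF-ND and 0, 0, 6 and 168 counts in GF-HFD. Mice 11 and 19 were the 2 highest for each, and mouse 10 was the third.

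Crygs, the gamma-type crystallin of the mature lens, differed from the gamma crystallins of the set in its steps between libraries. Its counts were 1.78 times those of Crygb in mouse 11 and 22.6 times in mouse 10, a range of 12.7-fold over the 8 libraries. This was not particular to Crygs. In mouse 10 Crygs was at 1.83% of its level in mouse 11 and Crygb at 0.144%. The alpha and beta crystallins were there at 1.48% (Cryba4) to 4.04% (Cryab).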
